A study of Mus musculus with 6 samples.

Results

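The genes described here encode the classical protein tyrosine phosphatases, enzymes that remove phosphate from tyrosine residues of proteins. They were chosen by symbol, as the genes named Ptpn with a number or Ptpr with a letter or with a letter and a number, and 37 of the 21959 genes with usable values met this rule. Of these, 20 are receptor type genes (Ptpr), whose products mostly span the membrane, and 17 are non-receptor type genes (Ptpn), whose products are mostly intracellular. Receptor phosphatases combine a phosphatase domain inside the cell with extracellular modules that resemble those of adhesion molecules, and many of them act at cell contacts. Non-receptor phosphatases find their targets through domains that bind phosphotyrosine, membranes, the cytoskeleton or mitogen-activated protein kinases. In epithelia, both groups oppose tyrosine kinases at junctions and adhesions and downstream of growth factor and cytokine receptors, although some members, such as Ptpn11, promote such signaling.

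The RNA-seq compared primary tumor cells with and without the Pak inhibitor domain (PID), a peptide that blocks the Group I p21-activated kinases. Both conditions came from mice of the type CDX2P-NLS-Cre;APC Δ/+, in which a CDX2 promoter drives Cre in the epithelium of the distal intestine and the loss of Apc leads to colon adenomas. PID+ cells carried in addition a Rosa26 allele from which Cre releases a fusion of GST with a mutant PID, followed by an eGFP reporter, and PID- cells lacked it. The cells were lines grown in culture from adenomas, and the labels give no age of the mice. The Cre and Apc lines were C57BL6/J and were crossed with agouti mice that carried the Rosa26 allele. The labels list 3 samples per condition, each named as a mouse, call the PID- samples normal and untreated, and give tumor induction as the treatment of all of them. The labels could not be checked on the transgene, for which the table has no row. The values are 1 pooled FPKM (fragments per kilobase of transcript, scaled by the number of mapped fragments) per gene and condition with the confidence interval that CuffDiff attached to it. None of the differences therefore has a replicate check within the RNA-seq values, and p-values were not calculated. The study also measured some genes by real-time PCR, such as those of E-cadherin and Lgr5. The change of a gene is given as the log2 of its FPKM + 1 in PID+ cells over its FPKM + 1 in PID- cells, which makes the differences of weakly expressed genes look smaller than their ratios. Where a pair of values is given without the conditions, the value in PID+ cells comes first. The depth of the samples is unknown. Reads behind single genes were estimated from steps in the low values and are approximate.

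Most of the phosphatase genes differed by less than 2-fold between PID+ and PID- cells, and 3 of them differed at least 3-fold. Ptprb and Ptprf were higher in PID+ cells, and Ptpn5 was lower. These were 5.41% and 2.70% of the members, beside 1.04% higher and 1.72% lower among all genes. Only genes that have at least 2 FPKM in a condition can reach 3-fold on this scale, and among the 25 members that did so the shares were 8% higher and 4% lower, beside 2.08% and 3.42% among the 11035 such genes. At 2-fold, 6 members were higher (Ptprb, Ptprf, Ptpn6, Ptpn18, Ptprd and Ptprz1) and 1 was lower (Ptpn5), which is 16.2% and 2.70%, beside 3.31% and 3.77% of all genes. To reach 2-fold on this scale a gene needs at least 1 FPKM in a condition, which 75.7% of the members and 53.7% of all genes had. The 2-fold shares therefore also reflect the higher expression of the members. The balance at 2-fold depends on the scale. When Gapdh was set equal between the conditions, only Ptprb and Ptprf stayed at least 2-fold higher, and Ptpn12 (-1.03) and Ptprm (-1.09) joined Ptpn5 among the lower members. Ptprz1 was also under 2-fold with equal total FPKM (0.98) and after subtraction of chromosome medians (0.70), a step that brought Ptpn3 above it (1.09). The deposited intervals lay apart for 1 member that was higher, Ptprb, and 1 that was lower, Ptpn5, beside 0.187% and 0.542% of all genes. With counts this small, nothing is read from these shares about the family as a whole. The median log2 change of the members was 0.0053, beside 0 for all genes, and it was -0.14 when Gapdh was set equal between the conditions. These medians include genes with almost no expression, whose changes are close to 0 on this scale. Among genes that averaged at least 1 FPKM, the median was 0.048 for the members and -0.0069 for all genes as deposited. Gapdh had an FPKM of 2570 in PID+ against 1666 in PID- cells, and Actb 1909 and 1433, so a scale set by Gapdh lowers the change of each gene that is above 0 in PID+ cells, with a median of -0.58 among genes that averaged at least 5 FPKM. Counts below are on the deposited scale unless equal Gapdh is named.

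**Figure D1:**
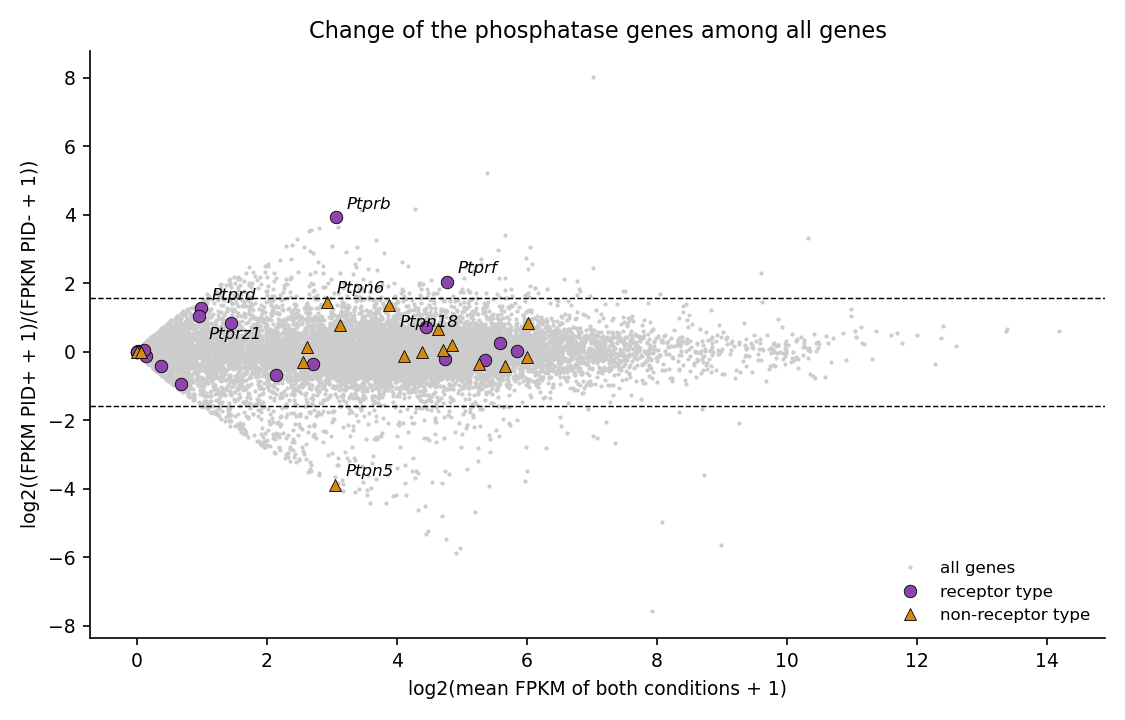
Change of each gene between PID+ and PID- cells on the log2(FPKM + 1) scale (vertical axis) against its mean FPKM on the same scale (horizontal axis). Grey points are all genes, circles are receptor type and triangles non-receptor type phosphatase genes, dashed lines mark 3-fold, and Ptprb at 3.94, Ptprf at 2.05 and Ptpn5 at -3.87 lie beyond them.

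At least 1 FPKM in either condition was reached by 28 of the 37 members (75.7%), beside 53.7% of all genes. The other 9 members, with an FPKM of at most 0.480, were Ptpn7, Ptpn20, Ptprc, Ptprh, Ptprn2, Ptpro, Ptprq, Ptprt and Ptpru, and Ptpn20 and Ptprn2 were listed at 0 in both conditions. At least 10 FPKM in both conditions was found for 14 members, and 14 of the 28 expressed members differed by less than 1.5-fold. Ptpn13 was the most abundant member in PID+ cells and Ptpn11 in PID- cells. FPKM of the 37 genes summed to 655 in PID+ against 566 in PID- cells, and the order turned when Gapdh was set equal, which gave 425 in PID+ cells. Receptor type genes made up 40.8% of the sum in PID+ against 36.9% in PID- cells.

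**Figure D2:**
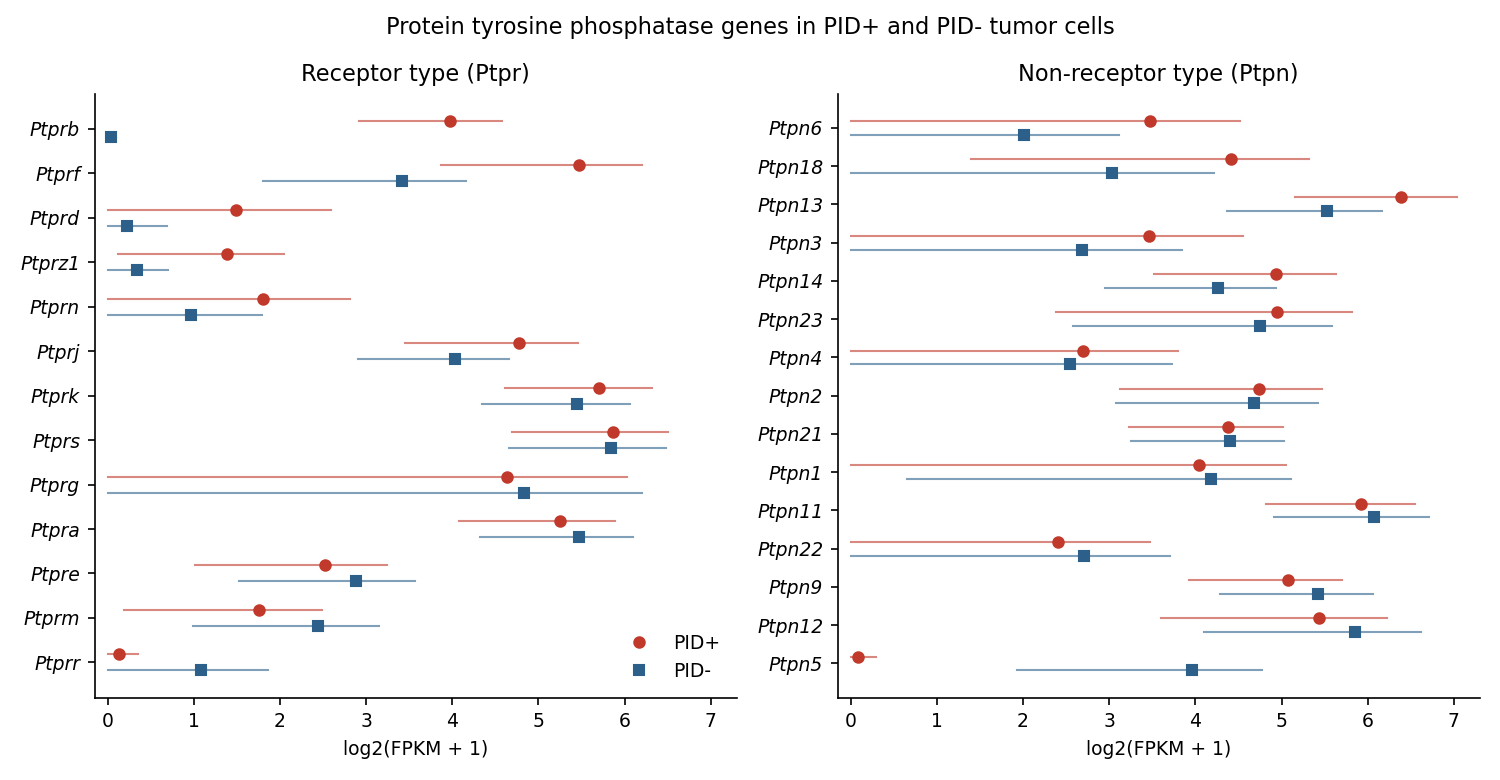
FPKM of the 28 phosphatase genes that reached 1 FPKM in either condition, on a log2(FPKM + 1) axis, in PID+ (circles) and PID- cells (squares), with the deposited confidence intervals as lines. Genes are ordered by their change, and the lines of the conditions lie apart for Ptprb and Ptpn5.

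Among the LAR receptors, which bind heparan sulfate proteoglycans and recruit liprins, Ptprf differed at least 3-fold between the conditions. Ptprf (LAR), found at cell contacts and focal adhesions, had an FPKM of 43.2 (interval 13.6 to 72.8) in PID+ against 9.71 (2.50 to 16.9) in PID- cells. This is a 4.45-fold ratio and a log2 change of 2.05, and the intervals overlapped between 13.6 and 16.9. The change was 1.44, under 3-fold, when Gapdh was set equal. Ptprf lies on chromosome 4, whose genes with an average of at least 5 FPKM had a median log2 change of -0.31, and the change of Ptprf was opposite to it. Ptprs, a receptor for heparan and chondroitin sulfate proteoglycans, was the most abundant LAR receptor in both conditions and nearly equal, with 57.1 (24.8 to 89.5) and 56.3 (24.2 to 88.3), a log2 difference of 0.02 that was negative with equal total FPKM and equal Gapdh. Ptprd, known as a synaptic organizer, was low, with 1.82 (0 to 5.02) in PID+ against 0.170 (0 to 0.608) in PID- cells, a log2 difference of 1.27. With these values, Ptprf was far below Ptprs in PID- cells and close to it in PID+ cells.

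Of the receptors with repeated fibronectin type III domains, Ptprb was at least 3-fold higher in PID+ cells. Ptprb (VE-PTP), known as the phosphatase of endothelial cells that acts on VE-cadherin and the receptor Tie2, had an FPKM of 14.7 (6.58 to 22.9) in PID+ against 0.0244 (0 to 0.0724) in PID- cells. The ratio was 604, from about 11770 and 27 estimated reads, and the log2 change of 3.94 was the 5th highest among all genes as deposited. Its level exceeded that of 73.3% of genes in PID+ cells and of 31.1% in PID- cells. Of the 12 endothelial markers, 3 reached an FPKM of 1, and their levels summed to 6.50 in PID+ against 10.8 in PID- cells. Pecam1 was at 0.0960 and 0.0931, Cdh5, which encodes VE-cadherin, at 0.219 and 0.0028, and Tek, which encodes Tie2, at 0.0168 and 0.0149. Cldn5 and Erg were listed at 0 in both conditions and Emcn in PID- cells. The most abundant endothelial markers were Kdr in PID+ cells, with 3.33 beside 1.01 in PID- cells, and Flt1 in PID- cells, with 8.67 beside 1.02 in PID+ cells and intervals apart. Eng, the other to reach an FPKM of 1, was at 1.08 and 0.507. At 3-fold, none of the 12 was higher in PID+ cells and Flt1 was lower, beside 1.04% higher and 1.72% lower among all genes. The 9 markers under 1 FPKM in both conditions could not reach 3-fold on this scale. The part of the endothelial markers in the value of Ptprb was not tested. Ptprj (DEP-1), which is linked to susceptibility to colon cancer in mice, was expressed in both conditions, with 26.4 (9.97 to 42.8) in PID+ against 15.4 (6.51 to 24.3) in PID- cells, a log2 difference of 0.74. With equal Gapdh, the log2 difference of Ptprj was 0.14. Ptprh, known from the microvilli of intestinal epithelium, Ptpro, known from podocytes, and Ptprq, known from hair cells of the inner ear, stayed under an FPKM of 1. Ptprv, which the list of the family also names, had no row.

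The MAM domain receptors, which bind their own kind on neighbouring cells, were represented mainly by Ptprk. It had an FPKM of 51.1 (23.4 to 78.8) in PID+ against 42.6 (19.3 to 66.0) in PID- cells, a log2 difference of 0.26 that became -0.35 with equal Gapdh. Ptprm was lower and went the other way, with 2.38 (0.138 to 4.63) and 4.43 (0.989 to 7.87), a log2 difference of -0.68. Ptprt and Ptpru were at most at 0.145. The short receptors Ptpra and Ptpre were both slightly lower in PID+ cells. Ptpra, which activates Src by removing its inhibitory phosphate, had 37.0 (15.9 to 58.1) and 43.3 (19.0 to 67.7), a log2 difference of -0.22. Ptpre, its close relative, had 4.74 (1.01 to 8.46) and 6.36 (1.87 to 10.9), a log2 difference of -0.36.

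The receptors with a carbonic anhydrase-like domain bind contactins. Ptprg was at 23.9 (0 to 64.4) in PID+ against 27.5 (0 to 72.7) in PID- cells, a log2 difference of -0.19, and its intervals were wide enough to reach 0 in both conditions. Ptprz1, a receptor of pleiotrophin in neural and glial cells, was at 1.61 (0.0912 to 3.12) and 0.265 (0 to 0.631), a log2 difference of 1.04. Ptprn, a protein of dense core secretory granules that lacks phosphatase activity, was at 2.50 (0 to 6.00) and 0.962 (0 to 2.47), a log2 difference of 0.83, and its relative Ptprn2 was at 0. Of the 10 neuroendocrine and neural markers, 8 stayed under an FPKM of 1, with a sum of 1.73 in PID+ against 4.92 in PID- cells. The most abundant in PID- cells was Tubb3 (2.15), Chga was at 0.0517 and 0, and Scg3 and Pcsk1 were at 0 in both.

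Ptprc (CD45), the receptor phosphatase of blood cells, was at 0.0264 in PID+ against 0.0081 in PID- cells, or about 10 and 4.2 estimated reads. The haematopoietic markers were likewise low. Of 16, 14 stayed under an FPKM of 1 in both conditions, Cd3e was at 0 in both, Lyz2, Tyrobp, Laptm5 and Cd52 were at 0 in PID+ cells, and Vav1 was at 0 in PID- cells. Their sum of 25.2 and 18.8 came mostly from Cd68, a lysosomal protein, with 21.8 and 16.8.

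Of the 3 phosphatases with a kinase interaction motif, which bind and inactivate Erk and p38, 1 was lower at 3-fold in PID+ cells and 2 were neither higher nor lower by this measure. Ptpn5 (STEP), best known from neurons, had an FPKM of 0.0629 (0 to 0.230) in PID+ against 14.6 (2.81 to 26.3) in PID- cells. Its level in PID- cells was 232 times that in PID+ cells, from about 13 estimated reads in PID+ and 4242 in PID- cells, and the log2 change of -3.87 was the 26th lowest among all genes. Ptpn5 lies on chromosome 7, where the corresponding median was 0.25, in the other direction. Ptprr was at 0.101 (0 to 0.281) and 1.11 (0 to 2.62), a log2 difference of -0.94 with overlapping intervals, from about 24 and 358 estimated reads. Ptprr shares 650 exonic bases with 4933416C03Rik, and since the library kit does not mark strand, reads there cannot be assigned to either gene. The deposited FPKM of 4933416C03Rik was 0 in PID+ against 0.0051 in PID- cells. Ptpn7, known from lymphocytes, was at 0.0428 and 0.0445. The neural markers given with the granule proteins were near 0 beside the 14.6 FPKM of Ptpn5 in PID- cells.

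Of the phosphatases with SH2 domains, Ptpn11 was abundant and little different, and Ptpn6 was higher in PID+ cells. Ptpn11 (Shp2), which relays growth factor signals to Ras and Erk, had 59.9 (27.2 to 92.5) in PID+ against 66.3 (29.1 to 103) in PID- cells, a log2 difference of -0.14. Ptpn6 (Shp1), an inhibitor of receptor signaling in blood cells and epithelia, had 10.1 (0 to 21.8) and 3.02 (0 to 7.62), a log2 difference of 1.47 that was 0.91 with equal Gapdh. Ptpn6 lies on chromosome 6, where the corresponding median was 0.34, in the same direction. After subtraction of that median its log2 difference was 1.13. Of the 16 haematopoietic markers, 14 stayed under 1 FPKM, Lcp1 was at 2.84 and 1.11, and Cd68, at 21.8 and 16.8, was above Ptpn6. Their part in the value of Ptpn6 was not tested. Ptpn1 (PTP1B), which acts on the insulin receptor, was at 15.5 (0 to 32.3) and 17.1 (0.569 to 33.6), a log2 difference of -0.13. Its relative Ptpn2, which acts on Jak kinases and Stats, was at 25.6 (7.72 to 43.5) and 24.7 (7.44 to 42.0), a log2 difference of 0.05 that was negative with equal total FPKM and equal Gapdh.

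The PEST phosphatases differed among themselves in direction. Ptpn18 was at 20.3 (1.64 to 38.9) in PID+ against 7.16 (0 to 17.6) in PID- cells, a log2 difference of 1.38. Ptpn12, which acts on the adhesion protein p130Cas and is important for cell migration, was the most abundant of them and lower in PID+ cells, with 42.3 (11.1 to 73.4) and 56.9 (16.1 to 97.6), a log2 difference of -0.42. Ptpn22, known for restraining lymphocyte receptors, was at 4.28 (0 to 10.1) and 5.53 (0 to 12.1), a log2 difference of -0.31.

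The phosphatases with a FERM domain, which ties them to the membrane and cytoskeleton, summed to 147 in PID+ against 93.7 in PID- cells, or 95.6 in PID+ cells with equal Gapdh. Ptpn13, a large scaffold with several PDZ domains, was the most abundant of them in both conditions, with 82.5 (34.6 to 130) and 45.2 (19.6 to 70.8), a log2 difference of 0.85. Ptpn14, which binds Yap, was at 29.6 (10.5 to 48.7) and 18.2 (6.73 to 29.7), a log2 difference of 0.67. Ptpn3, which has a single PDZ domain, was at 10.03 (0 to 22.5) and 5.42 (0 to 13.4), a log2 difference of 0.78. Its relative Ptpn4 was at 5.48 (0 to 12.9) and 4.82 (0 to 12.2), a log2 difference of 0.16 that was negative with equal Gapdh. Ptpn21, the relative of Ptpn14, was nearly equal, with 19.9 (8.41 to 31.3) and 20.1 (8.57 to 31.6), a log2 difference of -0.02 that was positive with equal upper quartiles and after subtraction of chromosome medians. The intervals of each of these genes overlapped between the conditions. With equal Gapdh, the log2 differences of Ptpn13, Ptpn14 and Ptpn3 were 0.24, 0.07 and 0.22. Ptpn9, a phosphatase of secretory vesicles, was at 32.6 (14.2 to 51.0) and 42.0 (18.5 to 65.5), a log2 difference of -0.36. Ptpn23, which works with the endosomal sorting machinery, was at 29.9 (4.24 to 55.5) and 25.97 (4.97 to 47.0), a log2 difference of 0.20 that was negative with equal Gapdh.

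Markers of epithelium and of fibroblasts differed between the conditions alongside these genes. Of 12 epithelial markers, 10 reached an FPKM of 1, 2 were at least 3-fold higher in PID+ cells (Epcam and Cldn7) and 1 was lower (Cdx2). Beside these counts and those of the fibroblast markers below, 1.04% of all genes were higher and 1.72% lower at 3-fold. With equal Gapdh, the changes of Epcam (1.06) and Cldn7 (1.15) were under 3-fold. The 12 summed to 9781 in PID+ against 5354 in PID- cells, or 6341 in PID+ cells with equal Gapdh, led by Krt18 in PID+ (2843) and Krt19 in PID- cells (2073). Epcam was at 401 and 124, Cldn7 at 274 and 79.4, and Cdh1, which encodes E-cadherin, at 192 and 88.0. Among the intestinal markers, Krt20 was at 158 and 73.5, Cdx2 at 0.542 and 8.04, and Vil1 at 0.175 and 0.0614, and Cdx1 was at 0 in both conditions. Of 11 markers of fibroblasts and smooth muscle, 4 had values in PID+ cells at least 3-fold below those in PID- cells (Col1a1, Col1a2, Col3a1 and Dcn), and the sum was 7.57 in PID+ against 43.9 in PID- cells. Col1a2 was at 0.0654 and 11.9 with intervals apart and was the most abundant of them in PID- cells, and that in PID+ cells was Acta2 with 4.39, beside 9.76 in PID- cells. Dcn and Thy1 were at 0 in PID+ cells, and Lum was at 0 in both. In such bulk samples, fewer cells of a type and less RNA per cell cannot be told apart. The part of these marker differences in the values of Ptpn5, Ptprb and Ptprf was not tested.

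Genes that act with the phosphatases were counted in the same way, beside the 1.04% higher and 1.72% lower at 3-fold among all genes. Among 21 ligands and partners of receptor phosphatases, 1 was at least 3-fold higher, 1 was lower and 19 were neither, and the median log2 change was 0, as for all genes. Of these 21 genes, 11 stayed under 1 FPKM in both conditions, which holds the median near 0, and these 11 could not reach 3-fold on this scale. Cntn2, a contactin, was at 3.32 in PID+ against 0.0087 in PID- cells, and Sdc2, a heparan sulfate proteoglycan of the cell surface, was at 3.43 and 18.0, a log2 difference of -2.10. Thbs1, a ligand of Ptprj, was the most abundant of this list in both conditions, with 344 and 306. The neural ligands Ptn and Mdk were under an FPKM of 1. Among 12 adaptors of Shp2 and of the Ras pathway, 1 was higher and the median was -0.37. This was Irs2, an insulin receptor substrate, with 13.2 and 3.59, a log2 difference of 1.63 that was 1.06 with equal Gapdh.

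Among 12 genes of Src family kinases and their regulators, 1 was lower, 11 were neither, of which 5 stayed under 1 FPKM, and the median was -0.04. Fyn, a kinase that Ptpn5 is known to dephosphorylate, had an FPKM of 0.591 (0 to 1.70) in PID+ against 14.6 (4.25 to 25.0) in PID- cells, a log2 difference of -3.29 with intervals apart. Its value was low in the same condition as that of Ptpn5. Src itself, the most abundant of this list, was at 54.0 and 43.3, a log2 difference of 0.31 that was negative with equal Gapdh. Among 11 Jak kinases and Stats, 1 was lower and the median was -0.14. Jak2 was at 23.6 and 73.7, a log2 difference of -1.60, beside Ptpn2 and Ptpn1, phosphatases of Jak kinases, with little difference.

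None of 14 focal adhesion proteins that carry phosphotyrosine reached 3-fold, and their median was 0.11. The widest gaps were those of Pstpip1, with 3.88 and 0.744 (log2 change 1.48), of its relative Pstpip2, with 8.69 and 4.08 (0.93), and of Nedd9, a relative of p130Cas, with 5.14 and 9.42 (-0.76). Pstpip1 is an adaptor of the PEST phosphatases. Among 20 measured genes of other tyrosine phosphatase classes (Ptpmt1 had no row), 1 was higher and the median was 0.10. Ptp4a3 (PRL-3), a phosphatase known from metastases of colon cancer, was at 35.0 and 10.1, a log2 difference of 1.69 that was 1.09 with equal Gapdh.

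The genes next to Ptprb, Ptprf and Ptpn5 were then compared, a step chosen after the values were seen. Among all genes, 1.04% were at least 3-fold higher and 1.72% lower. Genes under 1 FPKM in both conditions could not reach 3-fold on this scale. Ptprb lies on chromosome 10 of GRCm38 from 116275523 to 116389535 on the plus strand, 591 bases behind the end of Ptprr on the same strand. These neighbours went in opposite directions, with log2 changes of 3.94 and -0.94, and Kcnmb4, a potassium channel subunit 28326 bases beyond Ptprb, was at 1.18 in PID+ against 1.24 in PID- cells. Of 23 protein coding genes within 1 Mb of Ptprb, 14 reached 1 FPKM in either condition. None of the 23 was at least 3-fold higher and 1 was lower, the intestinal stem cell gene Lgr5, with 0.755 and 6.27. Ptpn5 lies on chromosome 7 from 47077795 to 47133684 on the minus strand. Of its 30 neighbours, 10 reached 1 FPKM in either condition, none was higher and 1 was lower. This was the closest of them, Tmem86a, 23018 bases away, with 15.1 in PID+ against 110 in PID- cells, a log2 difference of -2.78 with intervals apart. Ptprf lies on chromosome 4 from 118208213 to 118291405 on the minus strand. Of its 45 neighbours, 24 reached 1 FPKM in either condition. Among the 45, 1 was higher, Tmem125, with 5.39 in PID+ against 1.05 in PID- cells, a log2 difference of 1.64 that was 1.13 with equal Gapdh. The 2 lower ones were the glycine transporter Slc6a9, with 9.01 and 30.1, and the collagen prolyl hydroxylase P3h1, with 1.13 and 10.2, and with equal Gapdh Ccdc24 (-1.60) was also lower. The closest neighbour, the histone demethylase Kdm4a 28170 bases away, was at 13.1 and 25.1.

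**Figure D3:**
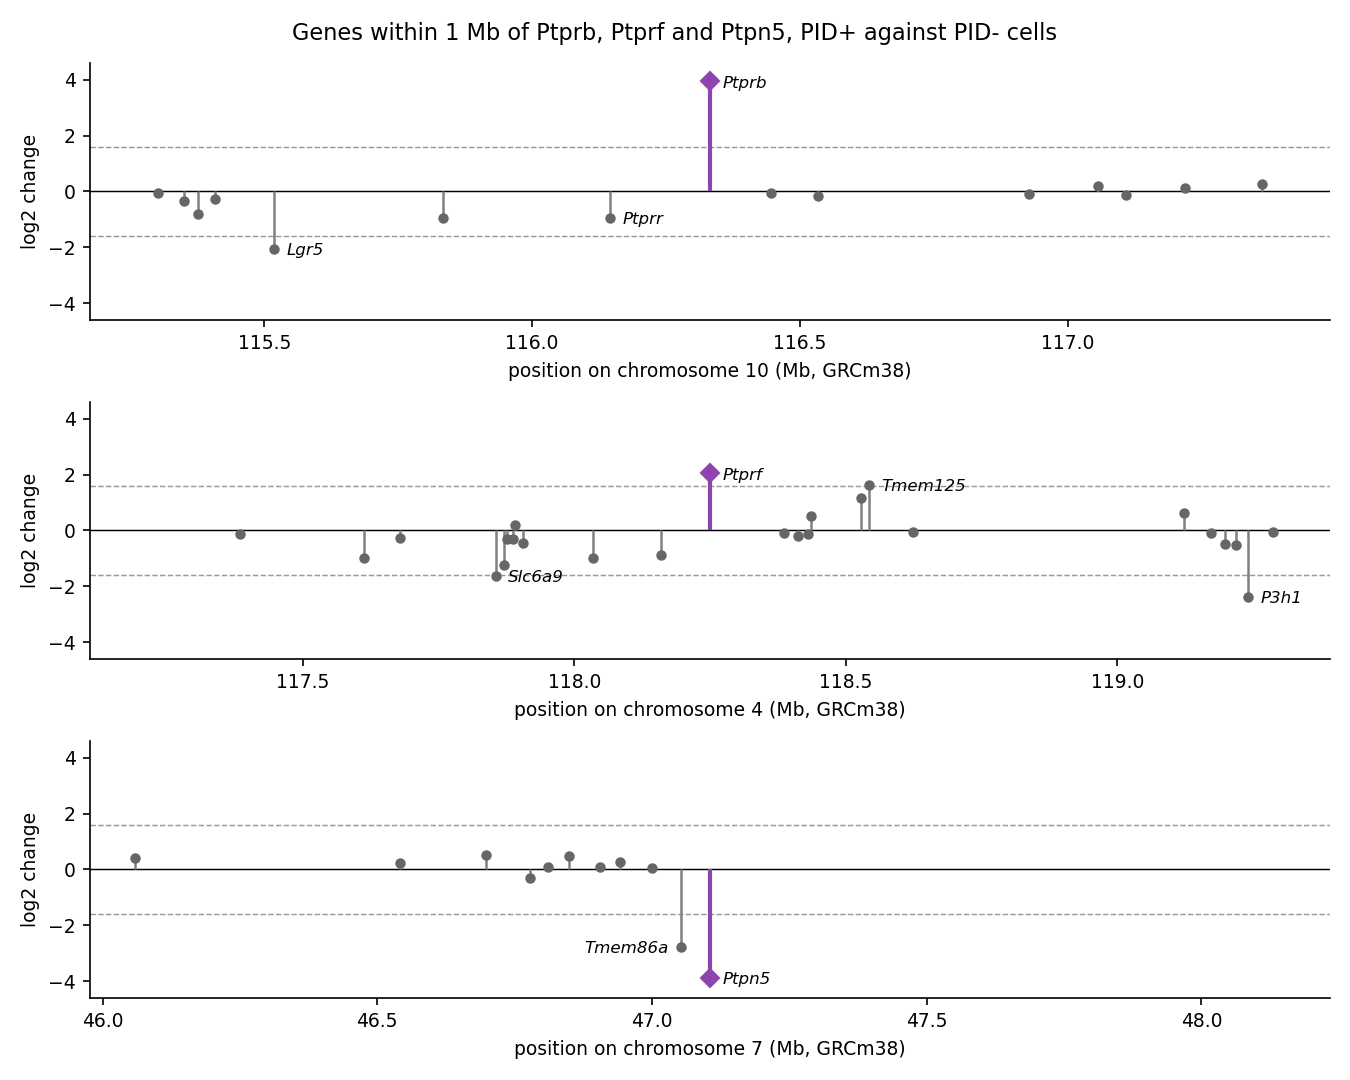
Log2 change between PID+ and PID- cells (vertical axis) of the protein coding genes that reached 1 FPKM in either condition within 1 Mb of Ptprb, Ptprf and Ptpn5, against their position in GRCm38 (horizontal axis). Diamonds are the phosphatase genes, dots are their neighbours and dashed lines mark 3-fold, and Tmem86a next to Ptpn5 is lower at -2.78 whereas Ptprr next to Ptprb is at -0.94.

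Promoter windows of RefSeq (GRCm38.p6), from 250 bases before to 50 after a gene's start, were matched for 32 of the 37 members (without Ptpn2, Ptpn12, Ptprb, Ptprd and Ptprq). They were searched for the E-box bound by Snai and Zeb factors, CACCTG or on the other strand CAGGTG, a motif chosen after the values were seen. It was present in a window of 7 of the 32 members (21.9%), beside 22.6% of all genes. The windows below are those of the members that differed at least 3-fold and of Ptpn6, the next in size among those with a window, and capitals mark the motif. They are those of Ptprf (chr4:118291348-118291647, minus strand), of the start of Ptpn5 that lies upstream (chr7:47133635-47133934, minus strand) and of the one downstream (chr7:47132549-47132848, minus strand), and of Ptpn6 (chr6:124738660-124738959, minus strand).
Ptprf: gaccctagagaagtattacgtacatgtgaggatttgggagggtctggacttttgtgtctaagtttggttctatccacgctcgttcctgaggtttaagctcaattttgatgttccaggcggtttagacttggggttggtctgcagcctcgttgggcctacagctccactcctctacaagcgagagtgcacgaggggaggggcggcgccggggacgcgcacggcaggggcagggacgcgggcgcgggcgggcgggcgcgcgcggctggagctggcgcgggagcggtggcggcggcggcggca
Ptpn5 upstream: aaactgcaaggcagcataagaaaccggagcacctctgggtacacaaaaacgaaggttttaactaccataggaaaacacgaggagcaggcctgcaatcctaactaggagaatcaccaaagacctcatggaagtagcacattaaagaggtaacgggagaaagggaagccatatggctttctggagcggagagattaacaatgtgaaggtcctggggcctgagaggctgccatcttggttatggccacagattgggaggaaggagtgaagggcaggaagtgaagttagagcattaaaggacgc
Ptpn5 downstream: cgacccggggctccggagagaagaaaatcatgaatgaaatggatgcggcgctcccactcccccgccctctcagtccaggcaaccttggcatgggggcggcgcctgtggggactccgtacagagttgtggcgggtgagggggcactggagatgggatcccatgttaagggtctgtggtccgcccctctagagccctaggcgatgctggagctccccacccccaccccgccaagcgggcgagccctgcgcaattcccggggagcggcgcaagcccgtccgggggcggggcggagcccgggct
Ptpn6: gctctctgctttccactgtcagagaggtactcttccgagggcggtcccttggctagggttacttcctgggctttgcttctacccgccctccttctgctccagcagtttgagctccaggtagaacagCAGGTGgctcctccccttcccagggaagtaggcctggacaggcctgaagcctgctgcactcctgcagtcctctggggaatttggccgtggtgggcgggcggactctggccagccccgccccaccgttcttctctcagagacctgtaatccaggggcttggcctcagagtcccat
The motif occurs once in the window of Ptpn6 and not in those of Ptprf and Ptpn5. The window of Ptprf holds 30 CpG dinucleotides and the windows of Ptpn5 hold 6 upstream and 24 downstream, beside a median of 7 over all 32851 windows.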

How the data were processed

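RNA from 3 PID+ and 3 PID- samples was poly A selected and sequenced. The authors trimmed reads with cutadapt, aligned them with TopHat and Bowtie2 to GRCm38.p3 and protein coding genes, merged the reads by condition, and deposited the FPKM of CuffDiff (compatible hits normalization) with interval bounds. The methods call the read sets replicated sequencing runs, the labels name mice. Rows called treated were taken as PID+. Of 21966 genes, 7 without status OK in both conditions were left out.

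Log2 changes used a pseudocount of 1. The 3-fold threshold follows the study. The value of a read came from genes with 1 transcript, where 88.7% of low values in PID+ and 89.5% in PID- cells lay within 0.1 of a whole number of reads (length correction of 180 bases, the best of 31). The FPKM value of a read in PID+ cells was 1.37 times that in PID- cells. Positions came from Gencode M21.

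Members and gene lists were chosen with earlier results of these data known. Named were all members, list genes past 3-fold or with intervals apart (otherwise at most 3 with the largest change), and the leading and defining markers, of which some are not reported here. Others were chosen after their values were seen. Calculations were tested on simulated data. Python 3.11.15, numpy 2.4.6, pandas 2.3.3 and matplotlib 3.10.9 were used.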

Additional observations from a re-analysis of the deposited data

How the results depend on the processing

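No paired analysis was possible because the table holds 1 pooled value per gene and condition. For the same reason no replicate could be left out. With a pseudocount of 0.1, 5 members were at least 3-fold higher in PID+ cells (Ptpn6, Ptprb, Ptprd, Ptprf and Ptprz1) and 2 were lower (Ptpn5 and Ptprr), since a smaller pseudocount widens the changes of low genes. Among all genes, 621 were higher and 795 lower with this pseudocount, in place of 229 and 377. At a threshold of 2-fold, 6 were higher and 1 was lower. These lists changed with the scale. With equal Gapdh only Ptprb and Ptprf stayed at least 2-fold higher and Ptpn5, Ptpn12 and Ptprm were at least 2-fold lower. Ptprz1 fell under 2-fold with equal total FPKM and after subtraction of chromosome medians, which brought Ptpn3 above it. With a pseudocount of 0.1, among members that reached 1 FPKM in either condition, Ptprn was also above 2-fold and Ptprr was also lower. At 3-fold with equal Gapdh FPKM, 1 was higher (Ptprb) and 1 lower (Ptpn5), the median log2 change of the members was -0.14, and among all genes 76 were higher and 662 lower, against 229 and 377 as deposited. With equal upper quartiles, equal total FPKM, chromosome medians subtracted or only genes that averaged at least 1 FPKM, Ptprb and Ptprf were higher and Ptpn5 was lower at 3-fold, as with the values as deposited, and the median lay between 0 and 0.07. The intervals of 2 members lay apart with and without the filter at a mean FPKM of 1. The sign of the change turned with equal Gapdh in 5 of the 28 expressed members (Ptpn2, Ptpn4, Ptpn23, Ptprk and Ptprs), with equal total FPKM in 2 (Ptpn2 and Ptprs), and in Ptpn21 with equal upper quartiles and after subtraction of chromosome medians.

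The conditions rest on 1 value each, so the spread between mice or cell lines is unknown. The deposited intervals cover the error model of CuffDiff only and overlapped for Ptprf. Estimated reads of genes with several transcripts were taken from the longest one.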
